A study of Homo sapiens with 17 samples.

Results

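Interferon-stimulated genes are genes whose transcription rises when a cell receives an interferon signal, and 49 of them were followed here by name through the mRNA-seq table. The table lists 26457 genes, all 49 were found in it, and 37 of them had a mean of at least 2.5 normalized reads over the 8 libraries and were tested with the other genes that did (14800 in all). The list was drawn up by symbol and not by the values, although earlier results of these data were known when it was made. The mRNA came from SW480, a human colon adenocarcinoma cell line that expresses a mutant p53 (mutp53). A stable line with a hairpin RNA against the bacterial gene LacZ (control) was set beside one with a hairpin against p53 (mutp53-depleted). Both lines were harvested untreated (0 h) or once TNF-α had been present at 12.5 ng/ml for 16 h. Each of the 4 groups had 2 libraries, A and B. Cells of both lines, including the controls, were grown with puromycin at 1.5 µg/ml and their hairpins induced with doxycycline at 1 µg/ml, so every comparison is between cells that had received both drugs. The 2 lines came ready-made from another laboratory, and 1 hairpin against p53 was used, so that the hairpin, the line and the loss of mutp53 cannot be told apart. The comparisons ask which interferon-stimulated genes respond to prolonged TNF-α, which depend on mutp53, and whether the TNF-α response itself differs between the lines.

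Type I and type III interferons bind receptor chains that activate the kinases JAK1 and TYK2, which phosphorylate STAT proteins, STAT2 among them. With IRF9 these form a complex that binds the interferon-stimulated response element (ISRE), whereas type II interferon acts at the gamma-activated site (GAS). TNF-α is not an interferon and signals mainly through NF-κB, which binds κB sites, but some interferon-stimulated genes, IRF1 among them, are also known NF-κB targets.

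To show what these genes have in front of them, windows from 250 bases before to 50 bases after each start were taken from RefSeq on GRCh38.p14, in which 40 of the 49 members were matched. The symbols IRF2, IRF7, IFIT2, OAS2, OASL, MX2, GBP2, USP18 and TRIM22 were not matched. The ISRE core was searched as GAAANNGAAA and the GAS as TTCNNNGAA, where N is any base, and the κB consensus by its usual degenerate letters, each on both strands, and a gene counted once if any of its listed starts had a match. An ISRE core stood in the windows of 27 of the 40 members (67.5%) and of 4.38% of all 27305 genes with a window, a GAS in 13 (32.5%) and 9.38%, and a κB match in 7 (17.5%) and 13.25%. The 6 stretches that follow, each the 160 bases before the start, read 5′ to 3′ on the gene's own strand, were chosen after the values were seen. The capitals mark the matches to these motifs, which overlap in places. The first 4 belong to genes that rose with TNF-α in control cells, SAMD9 was higher and IFI27 lower after mutp53 depletion.
IFIH1: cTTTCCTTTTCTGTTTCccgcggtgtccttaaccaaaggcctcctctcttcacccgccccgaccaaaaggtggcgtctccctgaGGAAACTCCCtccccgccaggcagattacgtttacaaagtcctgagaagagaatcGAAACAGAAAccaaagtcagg
DDX58: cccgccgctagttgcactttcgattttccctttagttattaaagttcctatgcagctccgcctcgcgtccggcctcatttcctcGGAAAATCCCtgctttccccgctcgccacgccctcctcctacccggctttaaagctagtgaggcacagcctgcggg
IRF1: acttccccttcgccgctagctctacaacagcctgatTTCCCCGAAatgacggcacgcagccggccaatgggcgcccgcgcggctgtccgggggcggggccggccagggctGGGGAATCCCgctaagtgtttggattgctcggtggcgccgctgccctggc
ISG20: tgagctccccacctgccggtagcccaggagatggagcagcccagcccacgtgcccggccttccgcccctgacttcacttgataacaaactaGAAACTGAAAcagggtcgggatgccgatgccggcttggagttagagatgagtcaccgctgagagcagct
SAMD9: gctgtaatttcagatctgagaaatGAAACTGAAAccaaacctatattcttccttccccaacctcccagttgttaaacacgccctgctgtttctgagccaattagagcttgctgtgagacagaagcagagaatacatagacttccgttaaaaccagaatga
IFI27: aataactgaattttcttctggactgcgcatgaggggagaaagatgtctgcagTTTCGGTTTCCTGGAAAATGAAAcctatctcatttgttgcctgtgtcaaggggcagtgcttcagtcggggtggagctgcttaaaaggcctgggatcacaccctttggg
The IFIH1 stretch is chr2:162318685-162318844 on the minus strand, and its capitals are ISRE cores that begin at positions −159, −153 and −21 from the start, with a κB match at −76. That of DDX58, which RefSeq now calls RIGI, is chr9:32526197-32526356 on the minus strand, with a κB match also at −76. The IRF1 stretch, chr5:132490774-132490933 on the minus strand, holds a GAS at −124 and a κB match at −50. The ISG20 stretch is chr15:88638856-88639015 on the plus strand (ISRE core at −69), and the SAMD9 stretch chr7:93117980-93118139 on the minus strand (ISRE core at −136). The IFI27 stretch, chr14:94110576-94110735 on the plus strand, holds ISRE cores at −108 and −95 with a GAS match at −101 between them, which overlaps both. A match describes letters and is not evidence that a factor binds there.

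Values are normalized reads, that is, reads on a gene's exons scaled by 1 factor per library, and 1 read was worth between 0.67 and 1.515 of them. The libraries held between 6108488 and 13809578 reads on genes. Of 10 markers of colon epithelium 9 were measured, and their summed level was 71276 to 76059 in control cells at 0 h, 61275 to 62260 at 16 h, 54184 to 54258 in mutp53-depleted cells at 0 h and 44237 to 45532 at 16 h, so that it was lower after depletion and lower with TNF-α. KRT8 (27733 and 25616) and KRT18 (27594 and 25847) gave most of the sum in control cells at 0 h. Single markers did not all follow it. VIL1 (villin) had 545 and 480 normalized reads in control and 8.71 and 12.3 in mutp53-depleted cells at 0 h. KRT19 was higher after depletion, with 7394 and 7114 against 8647 and 8716 at 0 h, as was CDX2, with 981 and 965 against 1038 and 1082. Leukocyte markers, with PTPRC and NKG7 at 0 reads in all libraries, summed to 71.2 to 80.6 in control cells at 0 h, 86.8 to 90.9 at 16 h, and 124.8 to 147.6 in mutp53-depleted cells; stromal markers, with COL3A1 and DCN at 0, summed to 136.4 to 154.5 and then 81.2 to 88.2 in control cells, and to 199.0 to 224.9 and then 94.8 to 109.8 in mutp53-depleted cells. Within these lists ACTA2 of the stroma went against its sum, with 90.7 and 109 in control and 12.1 and 26.1 in mutp53-depleted cells at 0 h. So did CD14 of the leukocytes, with 34.8 and 21.2 against 13.4 and 15.1. The part of any of these markers in the results was not tested. All adjusted p-values are from limma, fitted on log2(normalized reads + 1) over the 8 libraries and adjusted by Benjamini-Hochberg over all tested genes. A gene was called higher or lower when this was under 0.05 and the fold at least 2, and log2 fold changes understate the change of genes with few reads because of the added 1. The p-values measure the spread between the libraries of a group, which the methods describe as biological replicates. In bulk RNA, fewer cells with a transcript cannot be told apart from less of it per cell.

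In control cells at 0 h the interferon-stimulated genes covered a wide range of levels. Of the 49, 19 had fewer than 10 normalized reads, 15 between 10 and 100 and 15 at least 100. Per kb of exon, the scale on which genes can be compared, the tested members had a median level of 23.3 normalized reads and all tested genes one of 79.1, and 7 members lay above the latter. The highest was LGALS3BP, a secreted glycoprotein that binds galectins, with 1043 and 1080.4 normalized reads per kb in the 2 libraries. It was followed by ISG15, the ubiquitin-like protein that is attached to other proteins during the interferon response, with 654 and 515. These first places did not overlap with each other or with the next. IFI27, a mitochondrial and nuclear-envelope protein, had 195 and 223 per kb, IFI6, a small membrane protein that restrains cell death, 188 and 197, and TRIM25, the ubiquitin ligase of the RIG-I pathway, 198 and 183. The ranges of these last 3 overlapped, so that their order is not set by the data. STAT2, the STAT of the ISRE-binding complex, followed with 107 and 121 per kb and IRF1, the factor that activates many of these genes, with 104 and 92.0.

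**Figure D1:**
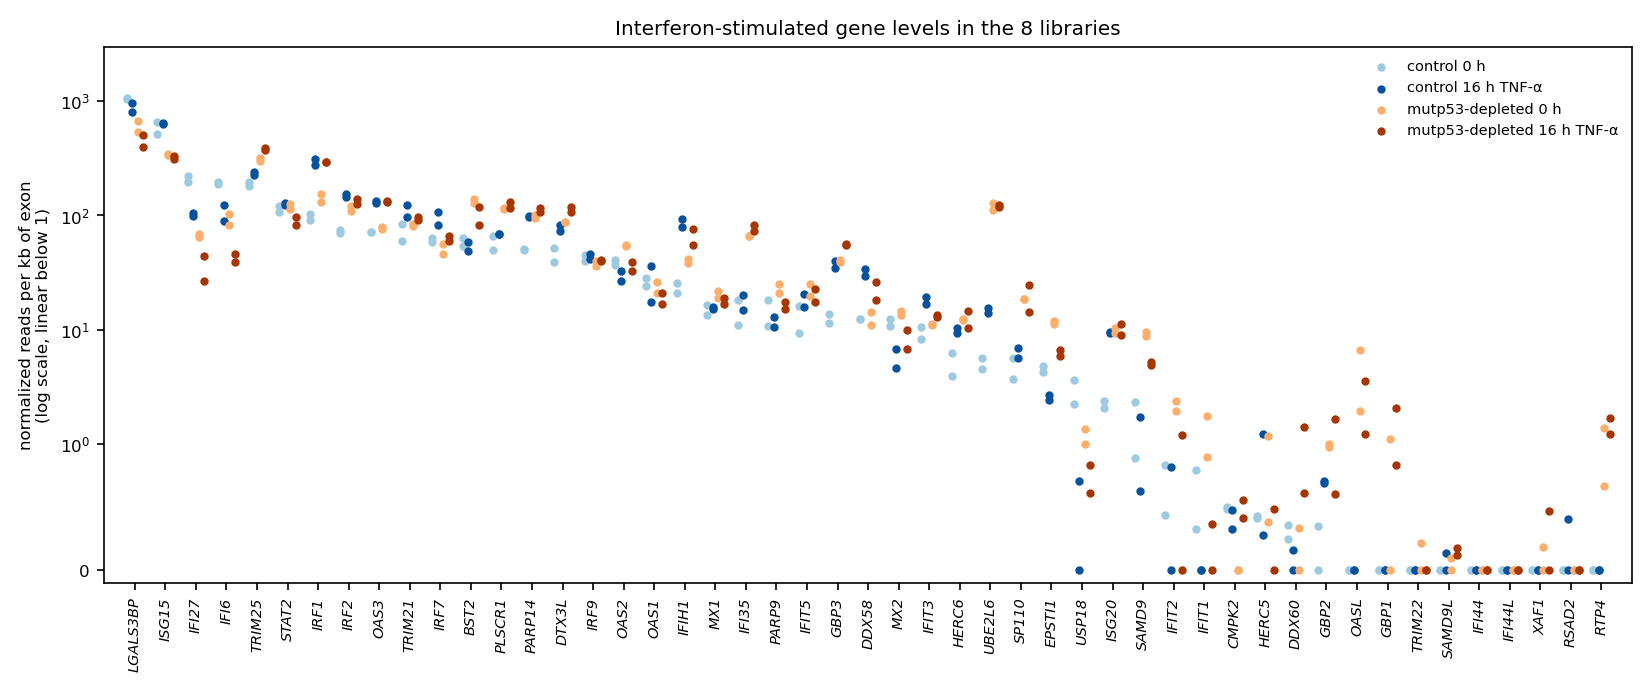
Level of each of the 49 interferon-stimulated genes in normalized reads per kb of exon (y axis, logarithmic above 1 and linear below it), ordered from left to right by the mean in control cells at 0 h, with 1 point per library and 1 color per group. LGALS3BP and ISG15 stand above the rest, UBE2L6 has the widest gap between the lines, and the points of IFI44 and IFI44L lie at 0 in all 8 libraries.

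A set of the best-known interferon-stimulated genes was almost silent in these cells. The 12 members that were not tested had at most 8.38 normalized reads, and at most 12 reads, in any library: DDX60, IFIT1, GBP1, HERC5, TRIM22, SAMD9L, IFI44, IFI44L, XAF1, CMPK2, RSAD2 and RTP4. IFI44 and IFI44L had no read in any library, and 7 members had none in any of the 4 control libraries. IFIT1, which binds viral RNA that lacks cap methylation, had 3.63 and 1.51 normalized reads at 0 h and 0 and 0 at 16 h in control cells, and 8.04 and 4.11 and then 1.68 and 0 in mutp53-depleted cells. RSAD2, which makes a chain-terminating nucleotide, was seen in 1 library, with 1.42. A count of 0 allows up to 3 reads, or 2.01 to 4.54 normalized reads depending on the library, so differences among these levels rest on few reads. When no filter was used, GBP1, RTP4 and DDX60 were called higher at 16 h and CMPK2 lower at 0 h after mutp53 depletion, and DDX60 higher and IFIT1 lower with TNF-α in mutp53-depleted cells. Of the 11 that had a promoter window 8 held an ISRE core. Of the tested members, 3 had a mean under 2.5 in the control libraries and 1 in the mutp53-depleted libraries, so these passed the filter through the other line. They were IFIT2, OASL and GBP2 on the one side and USP18 on the other, and the calls for OASL and USP18 are not counted as support for a direction. With a mean of at least 10, which leaves these 4 out, the 38 calls of the other members were all kept.

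TNF-α for 16 h raised 7 of the 37 tested members in control cells, IFIH1, DDX58, IRF1, IRF2, GBP3, UBE2L6 and ISG20, where 2.97% of all tested genes were called higher, and lowered 3, MX2, USP18 and IFI27, against 4.27%. The median log2 fold change of the tested members was 0.28 and that of all tested genes −0.05. In mutp53-depleted cells IRF1 alone was called higher, 1 of 37 against 1.86% of all tested genes, and IFI6 alone lower, against 4.5%. There the medians were 0.01 for the members and −0.06 for all tested genes.

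Both measured RNA sensors rose in control cells. IFIH1 (MDA5, which binds long double-stranded RNA) had 74.8 and 92.4 normalized reads at 0 h and 282 and 331 at 16 h in control cells, and 148 and 137, then 271 and 196, in mutp53-depleted cells. The groups did not overlap in either line, and the mutp53-depleted cells began higher and ended lower. The log2 fold change was 1.87 (SE 0.16, adjusted p = 6.8e-08) in control cells and 0.69 (SE 0.16, adjusted p = 0.0038) in mutp53-depleted cells, under the fold that was required. DDX58 (RIG-I, which binds short RNA with a 5′ triphosphate) had 58.8 and 59.1 at 0 h and 138 and 161 at 16 h in control cells, a log2 fold change of 1.32 (SE 0.21, adjusted p = 8.7e-05). In mutp53-depleted cells its values were 51.6 and 67.2 at 0 h and 86.3 and 125 at 16 h, with a log2 fold change of 0.81 (SE 0.21, adjusted p = 0.0072).

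Among the 5 transcription factors, IRF1 and IRF2 rose and STAT2, IRF7 and IRF9 were not called. IRF1 (chr5:131817301-131826465 on hg19) had 368 and 326 normalized reads at 0 h and 1100.1 and 989 at 16 h in control cells, and 464 and 543 against 1049.6 and 1047 in mutp53-depleted cells. Both lines thus reached overlapping levels at 16 h from 0 h levels that did not overlap. Its log2 fold change was 1.59 (SE 0.09, adjusted p = 4e-10) in control and 1.06 (SE 0.09, adjusted p = 1.2e-07) in mutp53-depleted cells. IRF2, which competes with IRF1 at the same sites, had 160.4 and 169.7 at 0 h and 329.6 and 354 at 16 h in control cells (log2 fold change 1.05, SE 0.11, adjusted p = 1.1e-06). In mutp53-depleted cells it had 273 and 251 at 0 h and 316 and 288 at 16 h (0.20, SE 0.11, adjusted p = 0.2). STAT2 had 484 and 545 at 0 h and 554 and 586 at 16 h in control cells, and 576 and 513 against 435 and 373 in mutp53-depleted cells. Its log2 fold change of −0.43 in the latter had an adjusted p of 0.0035 without reaching the required fold. IRF7, the amplifier of type I interferon, had a log2 fold change of 0.62 in control cells (SE 0.17, adjusted p = 0.0089) and IRF9 one of 0.03 (SE 0.20, adjusted p = 0.93).

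The effectors that TNF-α raised in control cells were GBP3, UBE2L6 and ISG20. ISG20, an exonuclease that degrades RNA, had 8.71 and 7.57 normalized reads (12 and 5 reads) at 0 h and 34.8 and 34.1 at 16 h in control cells. In mutp53-depleted cells it had 38.2 and 34.3 at 0 h and 41.1 and 33.3 at 16 h, so that only control cells at 0 h were low. GBP3, an interferon-inducible GTPase, had 41.4 and 34.8 at 0 h and 105 and 121 at 16 h in control cells, and 124 and 119 against 166 and 169 in mutp53-depleted cells. Its lowest library in mutp53-depleted cells at 0 h stood below the higher of the 2 control libraries at 16 h. UBE2L6, the enzyme that carries ISG15 to its targets, went from 7.26 and 9.09 to 25.1 and 22.8 in control cells. The log2 fold changes in control cells were 1.96 for ISG20 (SE 0.30, adjusted p = 7e-05), 1.55 for GBP3 (SE 0.17, adjusted p = 1.7e-06) and 1.45 for UBE2L6 (SE 0.22, adjusted p = 7.3e-05).

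Several further members had adjusted p-values under 0.05 in control cells without a 2-fold change. OAS3, which makes 2′-5′ oligoadenylates on binding double-stranded RNA, had 469.6 and 477 normalized reads at 0 h and 855 and 882 at 16 h, with 525 and 509 against 889 and 865 in mutp53-depleted cells. The log2 fold changes were 0.87 (SE 0.08, adjusted p = 9.8e-08) and 0.76 (SE 0.08, adjusted p = 7.7e-07), and their difference was −0.11 (SE 0.11, adjusted p = 0.74). PARP14, a mono-ADP-ribosyltransferase, had a log2 fold change of 0.95 (SE 0.08, adjusted p = 4.6e-08) in control cells, and DTX3L, a ubiquitin ligase that works with PARP9, one of 0.77 (SE 0.12, adjusted p = 5.8e-05). HERC6 (0.94, SE 0.29, adjusted p = 0.022) and IFIT3 (0.92, SE 0.28, adjusted p = 0.018) were near the required fold as well. ISG15 itself had 433 and 341 at 0 h and 425 and 418 at 16 h in control cells, which overlapped.

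The members that TNF-α lowered in control cells had few reads or lay close to the threshold. IFI27 had 136 and 156 normalized reads at 0 h and 69.6 and 74.0 at 16 h in control cells, and 44.9 and 48.0 against 31.0 and 18.5 in mutp53-depleted cells, with log2 fold changes of −1.01 (SE 0.24, adjusted p = 0.004) and −0.92 (SE 0.24, adjusted p = 0.0079). IFI6 had 156 and 164 at 0 h and 102 and 74.0 at 16 h in control cells, and 85.8 and 68.6 against 37.7 and 32.1 in mutp53-depleted cells, with −0.87 (SE 0.21, adjusted p = 0.0042) and −1.12 (SE 0.21, adjusted p = 0.00051). In both genes the level was lowest in the cells that had lost mutp53 and received TNF-α. MX2, a dynamin-like GTPase that blocks HIV-1, went from 31.9 and 36.4 to 13.5 and 19.9 in control cells (−1.01, SE 0.31, adjusted p = 0.023). Its values in mutp53-depleted cells were 42.9 and 39.8 at 0 h and 29.3 and 19.8 at 16 h. USP18, which removes ISG15 from proteins, had 7.26 and 4.54 at 0 h and 0 and 1.42 at 16 h in control cells, against 2.01 and 2.74 and then 1.68 and 1.23 in mutp53-depleted cells. It passed the filter through control cells at 0 h and rested on 13 reads there and 1 at 16 h, and the fitted value (−2.12, SE 0.74, adjusted p = 0.042) depends on the added 1. Without control replicate A at 0 h the calls for MX2 and USP18 were lost (log2 fold changes −1.10 and −1.83). The calls for MX2, USP18 and IFI27 were all lost without control replicate B at 0 h (−0.92, −2.41 and −0.92). The same 3 calls were lost without control replicate A at 16 h (−0.75, −1.48 and −0.97). IRF2 fell just under the fold without control replicate B at 16 h (0.99), and IRF1 (0.95) and IFI6 (−0.96) did so in mutp53-depleted cells without their replicate A at 0 h.

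**Figure D2:**
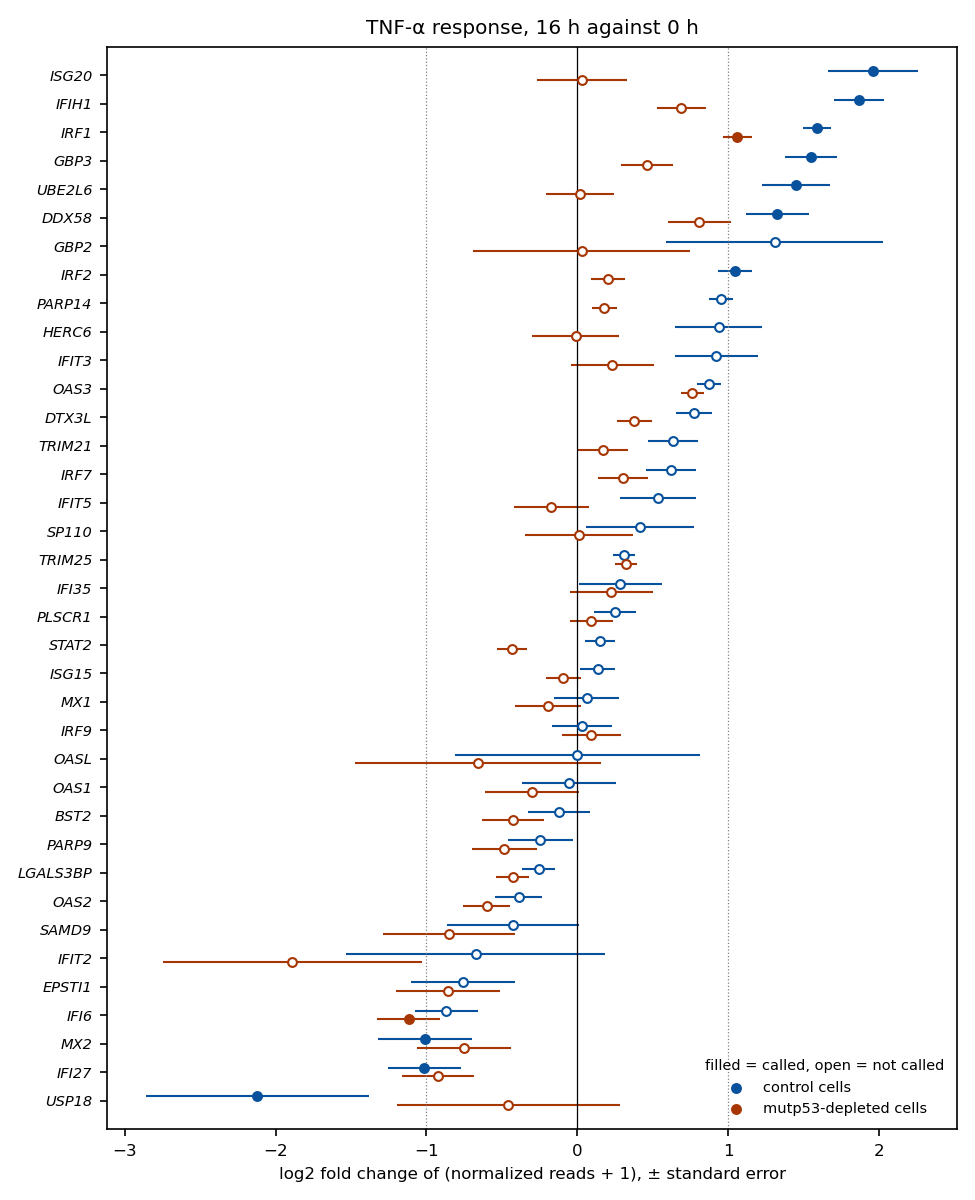
Log2 fold change of normalized reads + 1 at 16 h of TNF-α against 0 h (x axis) for the 37 tested interferon-stimulated genes (y axis), in control cells (blue) and mutp53-depleted cells (brown), with bars of 1 standard error, filled points for called genes and dotted lines at a 2-fold change. Filled blue points stand at 1.05 to 1.96 for 7 genes and at −1.01 to −2.12 for 3, and the filled brown points are IRF1 at 1.06 and IFI6 at −1.12.

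Depletion of mutp53 at 0 h was followed by higher levels of 11 of the 37 tested members, OASL, GBP3, UBE2L6, HERC6, SAMD9, IFI35, ISG20, BST2, EPSTI1, PLSCR1 and SP110, where 5.89% of all tested genes were called higher, and by lower levels of 2, IFI6 and IFI27, against 9.55%. The median log2 difference was 0.69 for the members and 0.03 for all tested genes. OASL is among the 11 although it passed the filter through the mutp53-depleted line, as did IFIT2 and GBP2. The differences of these genes at 0 h (3.10, 1.43 and 1.69) are within the members' median. At 16 h of TNF-α 6 were called higher, OASL, UBE2L6, SAMD9, IFI35, EPSTI1 and SP110, against 5.03% of all tested genes, and IFI6 and IFI27 again lower, against 10.2%. The medians there were 0.20 and −0.01. The comparison at 0 h and the TNF-α response of control cells both use the control libraries at 0 h, so that the 2 sets of values are not independent.

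UBE2L6 (chr11:57319128-57335803 on hg19) had the largest difference of the members. Against the control values given above, mutp53-depleted cells had 206 and 181 normalized reads at 0 h and 200.4 and 190.1 at 16 h. No mutp53-depleted library came near a control library, and the mutp53-depleted libraries at 16 h overlapped with those at 0 h (log2 fold change 0.02, SE 0.22, adjusted p = 0.97). The means stood 23.7-fold apart at 0 h (log2 difference 4.41, SE 0.22, adjusted p = 2.8e-11) and 8.15-fold apart at 16 h (2.98, SE 0.22, adjusted p = 3.9e-09). The control values rest on 10 and 6 reads at 0 h and 26 and 16 at 16 h, so that the size of these folds is imprecise.

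The other members called at both times differed by less. IFI35, a leucine-zipper protein, had 22.5 and 13.6 normalized reads at 0 h and 25.1 and 18.5 at 16 h in control cells, and 81.8 and 82.3 and then 102 and 90.1 in mutp53-depleted cells. The log2 differences, 2.16 (SE 0.28, adjusted p = 2.9e-06) and 2.10 (SE 0.28, adjusted p = 4.1e-06), were nearly the same at both times. SAMD9, a growth-restraining antiviral factor, had 16.0 and 6.06 at 0 h and 11.6 and 4.27 at 16 h in control cells. Its mutp53-depleted values were 65 and 60.3 at 0 h and 35.2 and 33.3 at 16 h, and no library of one line overlapped with the other (2.54, SE 0.44, adjusted p = 9e-05, and 2.11, SE 0.44, adjusted p = 0.00055). SP110, a nuclear-body protein, had 11.6 and 7.57 and then 11.6 and 14.2 in control cells, against 38.2 and 38.4 and then 50.3 and 29.6 (1.92, SE 0.36, adjusted p = 0.00019, and 1.52, SE 0.36, adjusted p = 0.0016). EPSTI1, first described as a gene of epithelial cells beside stroma, had 15.2 and 13.6 and then 7.73 and 8.54 in control cells, against 37.5 and 35.6 and then 21.0 and 18.5 (1.29, SE 0.35, adjusted p = 0.0043, and 1.18, SE 0.35, adjusted p = 0.0079). All 4 of these genes were thus higher in every mutp53-depleted library than in any control library at the same time. This separation adds no support, since the 4 were named for being called higher at both times. OASL, an OAS relative without enzyme activity, had no read in any control library and 4.02 and 13.7 normalized reads in mutp53-depleted cells at 0 h and 2.52 and 7.40 at 16 h. Against 3 reads per control library its mean was 2.64-fold higher at 0 h and 1.38-fold higher at 16 h (limma adjusted p = 0.0036 and 0.018). These folds take its own few reads as exact and are not lower bounds. At 16 h its 2.52 in mutp53-depleted replicate A lay under the 2.90 that 3 reads make in control replicate A. The gene entered the test through the mutp53-depleted line alone.

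The 5 members called higher at 0 h alone include ISG20 and GBP3, whose values are given above. Their log2 differences at 0 h were 2.03 (SE 0.30, adjusted p = 1.8e-05) and 1.65 (SE 0.17, adjusted p = 2.6e-07), and at 16 h 0.10 (SE 0.30, adjusted p = 0.8) and 0.57 (SE 0.17, adjusted p = 0.011). HERC6, a HECT-domain protein next to HERC5, had 15.2 and 24.2 normalized reads at 0 h and 35.8 and 39.8 at 16 h in control cells. In mutp53-depleted cells it had 46.9 and 48.0 and then 56.2 and 39.5, so that the lines overlapped at 16 h (1.26, SE 0.29, adjusted p = 0.0013, and 0.31, SE 0.29, adjusted p = 0.39). BST2 (tetherin, which holds budding virions on the cell) had 55.2 and 63.6 and then 49.3 and 59.8 in control cells, against 141 and 129 and then 119.9 and 83.9 (1.18, SE 0.21, adjusted p = 0.00011, and 0.87, SE 0.21, adjusted p = 0.0017). PLSCR1, a phospholipid scramblase, had 145 and 111 and then 151 and 151 in control cells, against 253 and 258 and then 256 and 290.0. It stood at the fold threshold (1.00, SE 0.14, adjusted p = 8.8e-06) and 51 genes centred on it along the chromosome had a median log2 difference of 0.80. With that median removed, the PLSCR1 difference was 0.21 (adjusted p = 0.29), and the call was lost.

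IFI27 and IFI6 went the other way, from the values given with the TNF-α response. The log2 differences of IFI27 were −1.63 at 0 h (SE 0.24, adjusted p = 1.7e-05) and −1.54 at 16 h (SE 0.24, adjusted p = 3.1e-05), and those of IFI6 −1.05 (SE 0.21, adjusted p = 0.00035) and −1.30 (SE 0.21, adjusted p = 4e-05). The members with the highest levels per kb also had negative differences, of less than the required fold. ISG15 had 227 and 226 normalized reads in mutp53-depleted cells at 0 h and 218 and 207 at 16 h, below every control library (−0.76, SE 0.12, adjusted p = 2.5e-05, and −0.99, SE 0.12, adjusted p = 1.2e-06). LGALS3BP had 2349 and 2433 and then 2187 and 1829.6 in control cells, against 1516 and 1223 and then 1134 and 905 (−0.81, SE 0.11, adjusted p = 5.6e-06, and −0.98, SE 0.11, adjusted p = 5.8e-07). LGALS3BP, ISG15, IFI27 and IFI6 thus had negative log2 differences at both times, and TRIM25, the fifth in level per kb, positive ones. The order by level was taken from the control libraries at 0 h. These also enter the difference at 0 h, so that level and difference are not independent. STAT2 and IRF1, next in level, had differences of 0.08 and 0.53 at 0 h and of −0.50 and 0.01 at 16 h. TRIM25 had 1133 and 1047 and then 1309.9 and 1391 in control cells, against 1711 and 1815 and then 2249 and 2163, with log2 differences of 0.69 (SE 0.07, adjusted p = 2.6e-07) and 0.71 (SE 0.07, adjusted p = 2e-07). The genes around TRIM25 had median log2 differences of 0.58 at 0 h and 0.59 at 16 h, against 0.69 and 0.71 for the gene itself. Over the tested members these regional medians ranged from −0.48 to 0.80 at 0 h, and whether they share a cause with the members' differences was not tested.

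**Figure D3:**
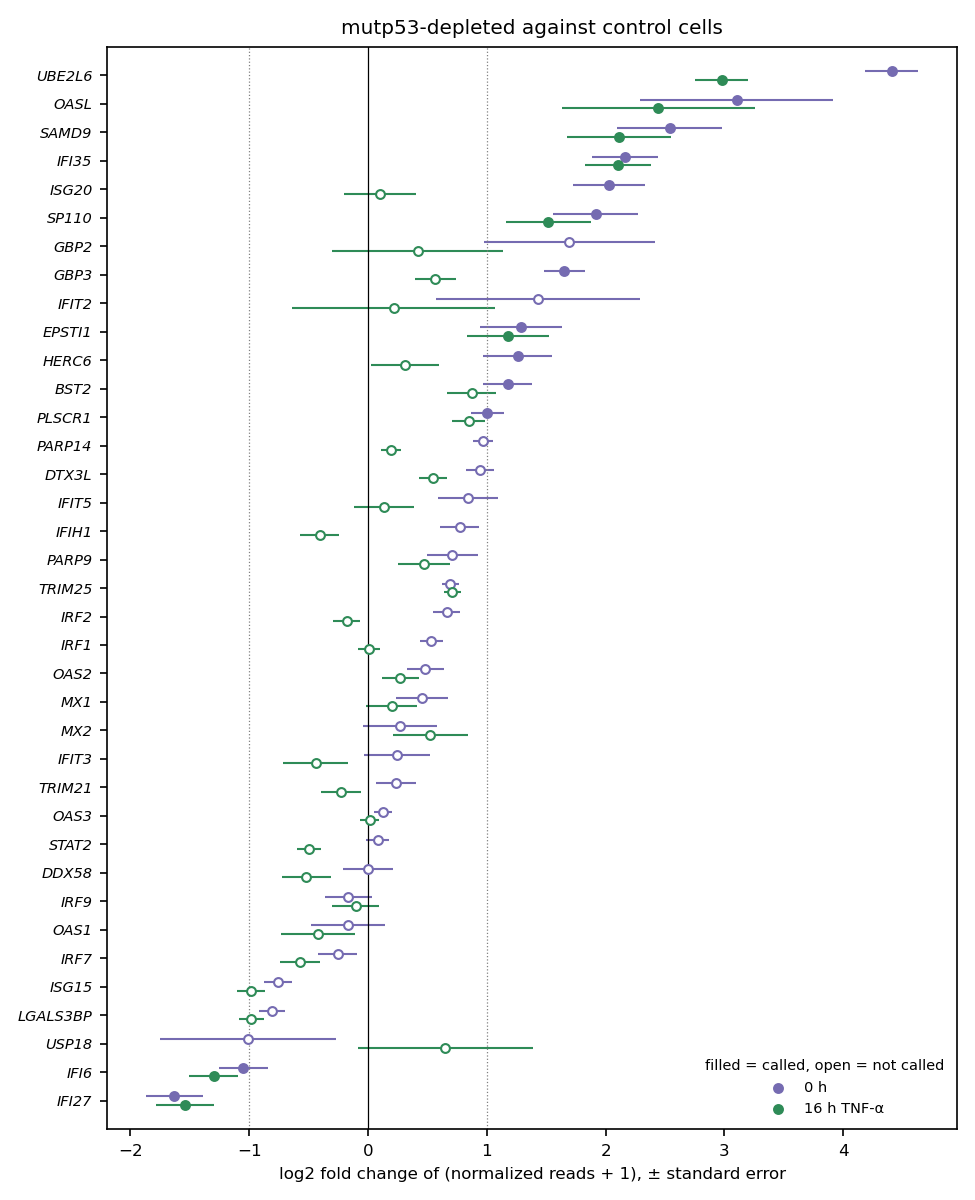
Log2 difference of normalized reads + 1 between mutp53-depleted and control cells (x axis) for the 37 tested interferon-stimulated genes (y axis), untreated (purple) and with 16 h of TNF-α (green), with bars of 1 standard error, filled points for called genes and dotted lines at a 2-fold difference. UBE2L6 stands at 4.41 and 2.98, ISG20 has a filled point at 2.03 and an open one at 0.10, and IFI6 and IFI27 have filled points below −1 at both times.

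The summed markers listed above moved with the line as well, at both times. In mutp53-depleted cells the sums of leukocytes and stroma were higher and that of colon epithelium lower. Single markers, among them KRT19, CDX2, ACTA2 and CD14, went against their sums at both times. The defining leukocyte marker PTPRC was at 0 in all libraries, and the part of these markers in the members' differences was not tested. The call for IFI6 at 0 h was lost without mutp53-depleted replicate B at 0 h (−0.89), that for HERC6 without control replicate A at 0 h (0.94), and those for OASL without mutp53-depleted replicate B of the same time (adjusted p = 0.088 at 0 h and 0.18 at 16 h). With the median line difference of the 51 genes nearest on the chromosome removed, the calls for PLSCR1 (0.21) and IFI6 (−0.92) at 0 h and for EPSTI1 (0.98) and OASL (adjusted p = 0.096) at 16 h were lost. With a pseudocount of 5, EPSTI1 (0.91) and OASL (0.95) at 16 h fell under the fold. PLSCR1 fell under the fold without control replicate B (0.81) or mutp53-depleted replicate B (0.99) at 0 h, with edgeR (0.92), DESeq2 (0.95), median-ratio scaling and a pseudocount of 5 (both 0.98), and DESeq2 did not call EPSTI1 at 16 h (adjusted p = 0.079).

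The TNF-α response was compared between the lines by the interaction, the log2 fold change in mutp53-depleted cells less that in control cells. It was called negative for 8 of the 37 tested members, IFIH1, STAT2, IRF1, IRF2, GBP3, UBE2L6, PARP14 and ISG20, where 2.21% of all tested genes were called negative, and positive for none, where 0.655% of all tested genes were called positive. No member was positive at an unadjusted p under 0.05 in limma (0 of 37), and edgeR and DESeq2 called 0 positive at an adjusted p under 0.05, with IFIT2, OASL, GBP2, USP18, EPSTI1 and SP110 left without an adjusted p by DESeq2. The median interaction was −0.40 over the members and −0.03 over all tested genes. The same 8 libraries enter this comparison and the others.

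In 5 of the 8 (ISG20, UBE2L6, GBP3, IRF2 and PARP14) the log2 fold change in mutp53-depleted cells did not pass the test. In these 5, and also in IFIH1 and IRF1, the level at 0 h was higher in mutp53-depleted than in control cells. That difference at 0 h enters the interaction with a negative sign, so that it is not independent of the call. ISG20 had the largest interaction (−1.93, SE 0.43, adjusted p = 0.016), with the level of mutp53-depleted cells at 0 h within the range of values seen in both lines at 16 h. That of UBE2L6 was −1.43 (SE 0.32, adjusted p = 0.016), of GBP3 −1.09 (SE 0.24, adjusted p = 0.018) and of IRF2 −0.84 (SE 0.16, adjusted p = 0.0051). PARP14 had 382 and 392 normalized reads at 0 h and 757 and 743 at 16 h in control cells, and 779 and 738 and then 890.4 and 827 in mutp53-depleted cells. Its mutp53-depleted libraries at 0 h overlapped with the control libraries at 16 h, and its interaction was −0.77 (SE 0.11, adjusted p = 0.00054). The other 3 differed in pattern. IRF1 reached overlapping levels in both lines, with an interaction of −0.53 (SE 0.13, adjusted p = 0.038). IFIH1 had an interaction of −1.18 (SE 0.23, adjusted p = 0.0065). Its difference between the lines at 16 h was −0.41, under the required fold (SE 0.16, adjusted p = 0.045, with DESeq2 0.11). STAT2 was alike at 0 h, with an interaction of −0.58 (SE 0.14, adjusted p = 0.031). At 16 h it was lower in mutp53-depleted cells, also under the required fold (−0.50, SE 0.10, adjusted p = 0.0004). The interactions of DDX58 (−0.52, SE 0.29, adjusted p = 0.49) and HERC6 (−0.95, SE 0.41, adjusted p = 0.3) were not called.

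**Figure D4:**
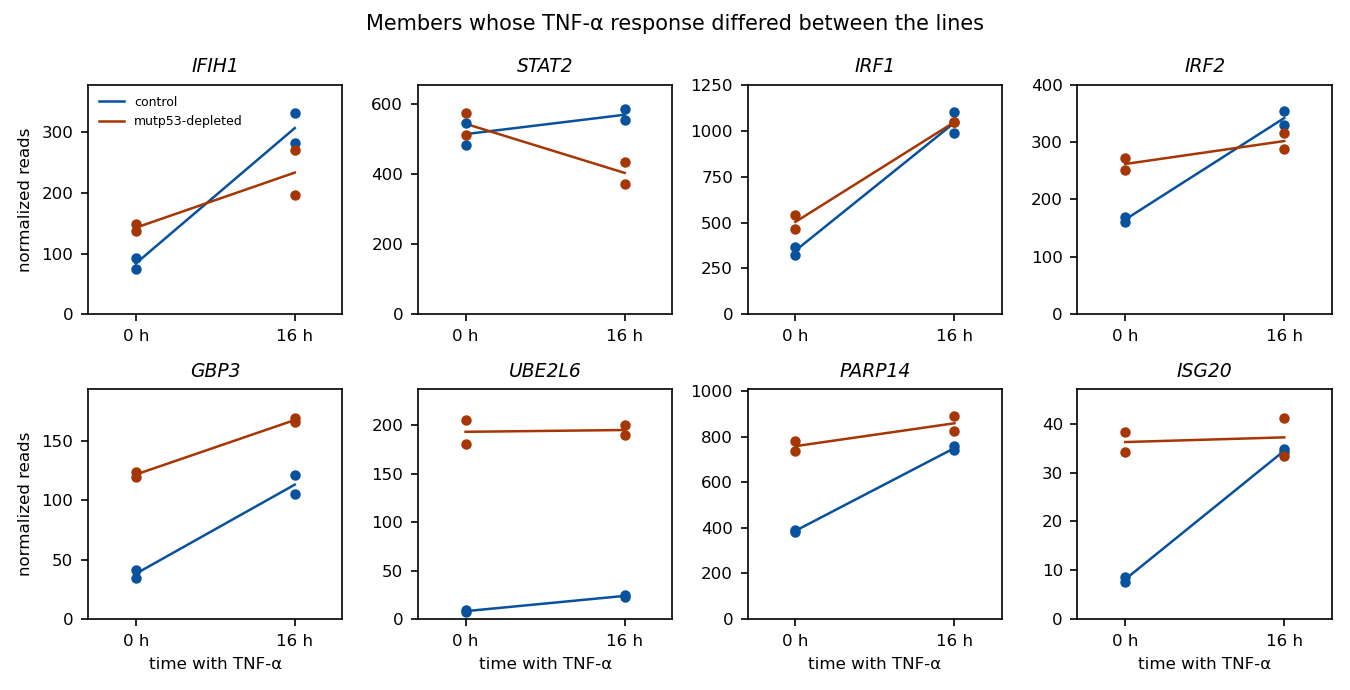
Normalized reads (y axis, from 0, a scale for each gene) by time with TNF-α (x axis, 0 h and 16 h) for the 8 members whose TNF-α response differed between the lines, with 1 point per library and lines through the means of control (blue) and mutp53-depleted (brown) cells. The blue line rises more than the brown in all 8, and for UBE2L6 and ISG20 the brown line is nearly flat, with interactions of −1.43 and −1.93.

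The number of interactions called was sensitive to single libraries, with 4 without control replicate B at 16 h, 4 and 3 without mutp53-depleted replicate A or B at 0 h, and 5 and 3 without A or B at 16 h. DESeq2 called 3 of the 8, IFIH1, IRF2 and PARP14, and edgeR all 8.

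Many of these genes lie in families side by side, and neighbours within a cluster did not move as 1 unit. In the GBP cluster on chromosome 1, GBP3 responded as described, GBP1 had 0 in all control libraries and at most 6.17 normalized reads elsewhere, and GBP2 had at most 6.71. In the OAS cluster on chromosome 12, OAS3 had an adjusted p under 0.05 with TNF-α in both lines, whereas OAS1, the smallest of the enzymes, ranged from 27.7 to 59.8 over all 8 libraries with no comparison called. OAS2 had 134 and 148 and then 96.7 and 119.5 in control cells, against 196 and 199 and then 143 and 118, so that its values were lower with TNF-α while those of OAS3 were higher. Its log2 fold change was −0.39 in control cells (SE 0.16, adjusted p = 0.075) and −0.60 in mutp53-depleted cells (SE 0.16, adjusted p = 0.0076).

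SAMD9 and SAMD9L lie 12030 bases apart on chromosome 7, and SAMD9L had at most 1.23 normalized reads where SAMD9 had up to 65. HERC6 and HERC5 lie 14018 bases apart on chromosome 4, and HERC5, the main ligase for ISG15, had at most 4.27 normalized reads. The bidirectional pair PARP9 and DTX3L overlaps by 10 bases on chromosome 3 on opposite strands, and the strand-specific counting keeps their reads apart. PARP9 had 72.6 and 123 and then 71.5 and 88.2 in control cells, against 141 and 170.0 and then 103 and 118. With TNF-α in control cells PARP9 had a log2 fold change of −0.25 (SE 0.22, adjusted p = 0.45) where DTX3L had the 0.77 given above. In the IFIT cluster on chromosome 10 IFIT3 and IFIT5 were measured between 21.2 and 102 normalized reads, and IFIT1 and IFIT2 did not exceed 8.23. IFIT5 had a log2 difference of 0.84 between the lines at 0 h (SE 0.25, adjusted p = 0.0088), under the required fold. MX1, next to MX2 on chromosome 21, ranged from 45.5 to 74.0 over all libraries with no comparison called. Members of 1 family share stretches of sequence, and how reads that fit several genes were counted is not given in the sources used here, so the split of reads within the GBP, IFIT, OAS and MX clusters is uncertain.

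**Figure D5:**
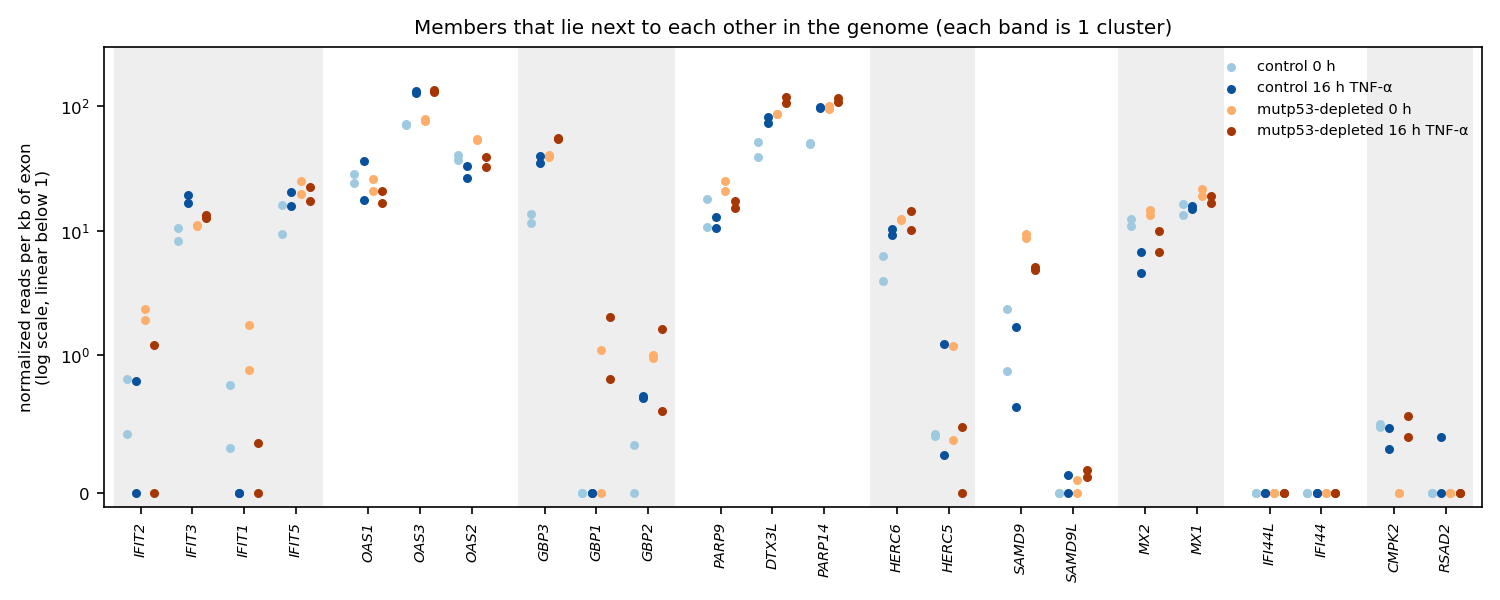
Normalized reads per kb of exon (y axis, logarithmic above 1 and linear below it) for members that lie next to each other, 1 band per cluster, with 1 point per library and 1 color per group. In each of the GBP, IFIT and HERC bands a gene that reaches 10 per kb stands beside one that stays below 3.

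The rest of the pathway was read from a second list of 79 genes, of which 50 were tested. At 0 h 8 of the 50 were called higher and 3 lower after mutp53 depletion, against 5.89% and 9.55% of all tested genes. At 16 h 4 were higher and 6 lower, against 5.03% and 10.2%. TNF-α raised 8 and lowered 3 in control cells, against 2.97% and 4.27%. In mutp53-depleted cells it raised 2 and lowered 4, against 1.86% and 4.5%. Of the interactions 7 were called, all negative, where 2.21% of all tested genes were called negative and 0.655% positive.

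No interferon gene was expressed at a level that could be tested. Of 17 type I interferon genes 16 had no read in any library, and IFNE, an epithelial interferon, had at most 4.35 normalized reads. IFNG had none, IFNL2 and IFNL3 had none, and IFNL1 had 0.97 in 1 library. The 6 receptor chains were all measured, IFNAR1 between 685 and 1576 normalized reads, IFNAR2 between 185 and 493, IFNGR1 between 197 and 665, IFNGR2 between 363 and 798, IFNLR1 between 47.0 and 136 and IL10RB between 109 and 309.9. IFNGR1, the ligand-binding chain for type II interferon, rose with TNF-α in control cells (216 and 253 to 665 and 489, log2 fold change 1.28, SE 0.16, adjusted p = 5.9e-06). IFNAR2, a chain of the type I receptor, was lower at 16 h in mutp53-depleted cells (199 and 185 against 493 and 403, −1.21, SE 0.12, adjusted p = 1e-07). The receptor kinases JAK1, JAK2 and TYK2 and the factor STAT3 were not called in any comparison. SOCS1, a feedback inhibitor of JAK kinases, had 29.0 and 22.7 at 0 h and 9.67 and 14.2 at 16 h in control cells (−1.07, SE 0.31, adjusted p = 0.014), and was higher in mutp53-depleted cells at 16 h (38.6 and 35.8, 1.58, SE 0.31, adjusted p = 0.00028).

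Among the genes that sense nucleic acids, IKBKE, the kinase that phosphorylates IRF3 and IRF7, had 162 and 179 normalized reads at 0 h and 905 and 913 at 16 h in control cells, and 248 and 237 and then 619.6 and 629 in mutp53-depleted cells. It was called higher with TNF-α in both lines (2.41, SE 0.09, adjusted p = 1.4e-12, and 1.36, SE 0.09, adjusted p = 4.5e-09), with an interaction of −1.05 (SE 0.13, adjusted p = 0.00015). IRF5 rose in control cells (1.05, SE 0.15, adjusted p = 2.2e-05) and was lower after depletion at 16 h (−1.37, SE 0.15, adjusted p = 2.9e-07). IRF3 had 1684 and 1741 in control cells at 16 h against 768 and 787 in mutp53-depleted cells (−1.14, SE 0.08, adjusted p = 1.1e-09), and its interaction was −0.46 (SE 0.11, adjusted p = 0.025). At 16 h the genes around IRF3 and IRF5 had median log2 differences between the lines of −0.70 and −0.59, and those around IFNAR2 one of −0.38. Whether these share a cause with the genes' own differences was not tested. TMEM173 (STING, the adaptor for cytosolic DNA) was lower after depletion at 0 h (133 and 117 against 276 and 271, −1.13, SE 0.12, adjusted p = 4.5e-07) and at 16 h (−1.56, SE 0.12, adjusted p = 7.4e-09). TLR3, the endosomal receptor for double-stranded RNA, was higher after depletion at 0 h (1.41, SE 0.50, adjusted p = 0.024) and fell with TNF-α in mutp53-depleted cells (−1.84, SE 0.50, adjusted p = 0.011), at 6.06 to 34.9 normalized reads.

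Of 33 other interferon-responsive genes, the apoptosis ligand TNFSF10 (TRAIL) had the largest interaction on this list. It had 22.5 and 30.3 normalized reads at 0 h and 50.3 and 56.9 at 16 h in control cells, and 67.0 and 67.2 and then 20.1 and 18.5 in mutp53-depleted cells. It thus rose in one line (1.01, SE 0.26, adjusted p = 0.0078) and fell in the other (−1.75, SE 0.26, adjusted p = 6.4e-05), with an interaction of −2.75 (SE 0.37, adjusted p = 0.00025) and log2 differences between the lines of 1.33 at 0 h (adjusted p = 0.00034) and −1.42 at 16 h (adjusted p = 0.00018). APOL6, an apolipoprotein L, rose in control cells (1.60, SE 0.13, adjusted p = 2.6e-08), was higher after depletion at 0 h (1.08, SE 0.13, adjusted p = 1.4e-06) and had an interaction of −1.31 (SE 0.18, adjusted p = 0.00034). SLFN5, a Schlafen family member, did the same, with 1.06 (SE 0.13, adjusted p = 3.7e-06), 1.36 (SE 0.13, adjusted p = 6.4e-08) and −0.85 (SE 0.18, adjusted p = 0.012). HELZ2, a helicase, and PARP12, a zinc-finger ADP-ribosyltransferase, rose with TNF-α in control cells (1.32, SE 0.10, adjusted p = 5.4e-09, and 1.09, SE 0.11, adjusted p = 7.5e-07). The interaction was −0.59 for HELZ2 (SE 0.13, adjusted p = 0.019) and −0.44 for WARS, the tryptophanyl-tRNA synthetase (SE 0.10, adjusted p = 0.026).

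IFITM1, a membrane protein that blocks virus entry, was higher after depletion at both times (1.28, SE 0.10, adjusted p = 6.9e-09, and 1.48, SE 0.10, adjusted p = 1e-09) and lower with TNF-α in both lines (−1.23, SE 0.10, adjusted p = 2.9e-08, and −1.03, SE 0.10, adjusted p = 4.1e-07). SP100, a nuclear-body protein, was higher after depletion at 0 h (1.17, SE 0.15, adjusted p = 2.3e-06), and SLFN11 at 16 h (1.69, SE 0.48, adjusted p = 0.0065). IFI16, a DNA sensor, had no read in any control library and 2.74 to 13.6 normalized reads in mutp53-depleted cells. It was called higher after depletion in limma (adjusted p = 0.011 at 0 h and 0.00034 at 16 h), with 9 and 2 reads at 0 h. The gene entered the test through the mutp53-depleted line alone. Its calls are within the counts given for this list and are not counted as support for a direction. IFI30, a lysosomal thiol reductase, was lower after depletion at both times (−1.04, SE 0.14, adjusted p = 6.6e-06, and −1.39, SE 0.14, adjusted p = 1.9e-07). CD274 (PD-L1) was lower at 0 h, 2.68 and 1.37 against 10.2 and 6.06 (−1.59, SE 0.52, adjusted p = 0.016), and rose with TNF-α in mutp53-depleted cells (1.77, SE 0.52, adjusted p = 0.017). TRIM5, a capsid-binding ligase, was lower with TNF-α in both lines (−1.44, SE 0.42, adjusted p = 0.017, and −1.17, SE 0.42, adjusted p = 0.048). The chemokine genes CXCL9, CXCL10 and CXCL11 had at most 8.54 normalized reads and were not tested. DESeq2 did not call TRIM5 with TNF-α in either line (adjusted p = 0.12 and 0.18). It also did not call CD274 after depletion at 0 h or with TNF-α in mutp53-depleted cells (adjusted p = 0.11 and 0.13), TLR3 after depletion at 0 h or SOCS1 with TNF-α in control cells (adjusted p = 0.12 for each), or the IRF3 interaction (adjusted p = 0.062).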

How the data were processed

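mRNA-seq of SW480 cells with a hairpin against LacZ or p53, at 0 h or 16 h of TNF-α, was read from 1 table with 8 library columns. The authors mapped 50-base single-end reads of strand-specific dUTP libraries with STAR and counted those on exons of RefSeq genes with HOMER. The signal values the authors deposited are these counts times a factor for each library that brings its total to a common value. The header and coordinates give hg19, whereas the methods name hg38, and genome positions of genes are printed as in the table. The deposited exon length served for values per kb. The authors' own log2 fold changes, p-values and adjusted p-values for 4 comparisons were not used. Dividing by the value of 1 read gave whole reads for 100% of values in every library, within 0.1 read. Library totals on genes were 6108488 to 13809578 reads, which limits the precision of low genes, and floors cover counting error only. The ChIP-seq and GRO-seq data of the series were not analysed here.

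Groups follow the labels, which give 1 record per group, and the letters A and B come from the column names. The methods speak of biological replicates. Deviations of libraries with the same letter correlated at −0.02 to 0.07, so the letters were not taken to pair libraries. A linear model from limma 3.58.1 (R 4.3.3, with a mean-variance trend) was run on log2(value + 1) for genes with a mean of at least 2.5, for depletion at 0 h and at 16 h, TNF-α in each line and the interaction. Calls needed a 2-fold change and an adjusted p (Benjamini-Hochberg) under 0.05, or for the interaction the latter alone. The fit was tested on simulated data. The alternatives changed the scaling (median ratio), the filter (none, or a minimum mean of 10) or the pseudocount (0.1 or 5), added the replicate letter as a block, removed the median difference of the 51 neighbouring genes, dropped each library, or used the recovered reads with edgeR 4.0.16 (quasi-likelihood, TMM) or DESeq2 1.42.0. Over all tested genes these count tests called 2336 and 1955 genes for depletion at 0 h, 2249 and 1918 at 16 h, 1076 and 805 for TNF-α in the control line, 939 and 681 in the mutp53-depleted line, and 456 and 293 interactions.

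The members, the second list of pathway genes and the marker lists were chosen with earlier results of these data known. Values per library are given for members called in any comparison and for the 5 with the highest level per kb, and other members as counts, ranges or short values. Pathway genes called in any comparison are named, except that some genes are not reported here. The promoter stretches, the GAS motif and the accounts of single clusters were chosen after the values were seen.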

Additional observations from a re-analysis of the deposited data

Results flagged for a closer look

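The TNF-α response differed between the lines, by the interaction in limma, for 8 members, each with a smaller log2 fold change in mutp53-depleted than in control cells. The differences were −1.18 for IFIH1, −0.58 for STAT2, −0.53 for IRF1, −0.84 for IRF2, −1.09 for GBP3, −1.43 for UBE2L6, −0.77 for PARP14 and −1.93 for ISG20. The interactions of IRF2 and PARP14 were called under every alternative run. Those of GBP3, UBE2L6 and ISG20 were lost with DESeq2 (adjusted p = 0.088, 0.081 and 0.1) and when any of several single libraries was left out. That of IFIH1 was lost without control replicate B at 16 h (−1.06). The interactions of STAT2 and IRF1 were lost under 9 and 10 of the 17 alternatives, and the cause was not tested. Groups of 2 libraries are too small to look for single outlying ones.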

How the results depend on the processing

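Of 41 calls of a member in a comparison, 23 held under all 17 alternatives, 18 were lost under at least 1, and 0 reversed. The 3 members lowered by TNF-α in control cells became 1 with median-ratio scaling, 0 with a pseudocount of 5 and 0 with DESeq2. With no filter, members called in mutp53-depleted cells became 2 higher and 2 lower (1 and 1 with it), and interactions became 5 (8 with it). DESeq2 called 3 interactions. Leaving out 1 library at a time gave 11 to 13 members higher and 1 to 2 lower at 0 h after depletion, and 6 to 7 higher and 2 to 4 lower at 16 h. With TNF-α it gave 6 to 8 higher and 0 to 3 lower for control cells, 0 to 2 higher and 0 to 3 lower in mutp53-depleted cells, and 3 to 8 interactions. The 4 members lower at 16 h were seen without mutp53-depleted replicate A of that time, as were the 2 higher and 3 lower with TNF-α in mutp53-depleted cells. The cause of these changes was not tested, except that fewer libraries leave a wider error. A model with the replicate letter as a block changed no call and gave the same counts, 11 higher and 2 lower at 0 h after depletion, 6 and 2 at 16 h, 7 and 3 for control and 1 and 1 for mutp53-depleted cells with TNF-α, and 8 interactions. The median of the members at 0 h after depletion was 0.52 with the neighbouring genes' median removed, and that at 16 h 0.01 without mutp53-depleted replicate A. The median with TNF-α in control cells was 0.44 and 0.14 without control replicate A or B at 0 h. In the shallowest library 3 reads are 4.54 normalized reads, so the calls that members gain with no filter rest on few reads.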
